A study of Homo sapiens with 12 samples.

Results

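The replication-dependent core histone genes were followed across 12 RNA sequencing libraries of T-cell leukaemia lines treated with the histone deacetylase inhibitor chidamide. Members were all rows of the deposited expression table whose symbol has the form HIST1 to HIST4 followed by H2A, H2B, H3 or H4, which gave 65 of the 25146 genes listed. The linker histone genes were left out. The members are 17 H2A, 19 H2B, 14 H3 and 15 H4 genes, and by cluster 49 belong to HIST1, 12 to HIST2, 3 to HIST3 and 1 to HIST4. In the RefSeq annotation 49 lie on chromosome 6, 15 on chromosome 1 and 1 on chromosome 12, and HIST2H2BC is annotated as a pseudogene.

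The libraries fall into 4 groups of 3, in this order: Jurkat with chidamide, Jurkat without treatment, Molt-4 with chidamide and Molt-4 without treatment. Jurkat and Molt-4 are established lines from T-cell acute lymphoblastic leukaemia, grown in the same serum-supplemented medium, and the letters J and M in the library names were read as these lines. A further label names peripheral blood, which goes against the cell lines given by the source label and the growth protocol. Chidamide, a benzamide that inhibits class I histone deacetylases, was given at 2 µM. The protocol gives 48 h, while the labels of treated replicates 1, 2 and 3 carry 48, 49 and 50 h; which holds is not known, and if the labels hold, time and replicate number cannot be told apart. The untreated groups carry no treatment in the labels. Nothing in the labels says that replicates were separate cultures, so p-values measure the spread between these libraries, which may be technical.

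Replication-dependent histone genes supply the proteins that package newly copied DNA, and they are switched on as cells enter S phase. Most of their messenger RNAs end in a stem-loop, bound by the protein SLBP, and carry no poly(A) tail. Several members also give longer, polyadenylated transcripts, which have been described in cells that stop dividing or differentiate. The TruSeq kit named in the labels selects RNA by its poly(A) tail and does not mark strand, so the values here are those of transcripts that passed such a selection, and reads of genes that overlap on opposite strands cannot be separated.

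The start-site regions of 5 members are shown because these genes carry the results below: HIST1H2AI, HIST1H2BG and HIST1H4H had the highest increases with chidamide in Molt-4, HIST1H2AC the highest called increase in Jurkat, and HIST1H2BK the highest level. Each is the 250 bases before the RefSeq start site in GRCh38.p14, 5′ to 3′ on the gene's own strand, from chr6:27807923-27808172 (plus strand), chr6:26216689-26216938 (minus), chr6:26285535-26285784 (minus), chr6:26123922-26124171 (plus) and chr6:27146859-27147108 (minus). Capitals mark matches, on either strand, to the octamer ATTTGCAT (reverse ATGCAAAT), which OCT1 binds in H2B promoters, to CCAAT (reverse ATTGG), to the TATA box TATAAA (reverse TTTATA), and to GGTCCG (reverse CGGACC), the core of the site that HINFP binds in H4 promoters. None of these motifs holds another, but neighbouring matches can overlap, as TTTATA and TATAAA do in HIST1H2BK.
HIST1H2AI: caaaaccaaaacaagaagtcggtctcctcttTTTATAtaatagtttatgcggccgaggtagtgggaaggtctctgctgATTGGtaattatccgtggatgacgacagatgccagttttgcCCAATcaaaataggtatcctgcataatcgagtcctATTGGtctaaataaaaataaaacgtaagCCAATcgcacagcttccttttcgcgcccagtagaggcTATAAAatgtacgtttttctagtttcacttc
HIST1H2BG: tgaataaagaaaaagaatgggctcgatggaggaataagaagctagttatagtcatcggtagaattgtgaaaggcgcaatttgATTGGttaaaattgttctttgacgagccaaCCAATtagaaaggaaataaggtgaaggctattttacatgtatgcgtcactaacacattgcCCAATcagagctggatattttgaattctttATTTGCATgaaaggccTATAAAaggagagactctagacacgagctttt
HIST1H4H: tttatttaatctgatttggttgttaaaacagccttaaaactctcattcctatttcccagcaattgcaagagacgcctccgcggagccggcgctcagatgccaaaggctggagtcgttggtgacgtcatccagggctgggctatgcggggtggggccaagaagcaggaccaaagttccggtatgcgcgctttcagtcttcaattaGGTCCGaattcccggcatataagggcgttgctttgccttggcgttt
HIST1H2AC: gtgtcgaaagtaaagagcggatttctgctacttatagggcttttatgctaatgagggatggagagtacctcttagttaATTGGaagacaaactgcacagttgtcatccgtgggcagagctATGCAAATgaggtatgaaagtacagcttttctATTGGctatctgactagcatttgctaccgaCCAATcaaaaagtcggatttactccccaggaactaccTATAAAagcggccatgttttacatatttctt
HIST1H2BK: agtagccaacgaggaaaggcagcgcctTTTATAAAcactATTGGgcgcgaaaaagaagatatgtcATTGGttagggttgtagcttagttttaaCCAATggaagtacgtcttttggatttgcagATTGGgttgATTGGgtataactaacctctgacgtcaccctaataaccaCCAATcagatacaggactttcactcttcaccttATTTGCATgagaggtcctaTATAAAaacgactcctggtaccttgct
The regions of HIST1H2BG and HIST1H2BK hold the octamer just before a TATA box, that of HIST1H2AC holds it in reverse farther from the start, and those of HIST1H2AI and HIST1H4H hold none.

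RefSeq windows of 300 bases (250 before to 50 after the start) were at hand for 59 of the 65 members and for 27305 genes in all. The octamer was found in 26 of the 59 members (44.07%), against 1.8% of all windows, and it lay in 14 of 18 H2B, 11 of 16 H2A, 1 of 12 H3 and 0 of 13 H4 members. The H3 match is that of HIST1H3D, whose RefSeq window is the same as that of HIST1H2AD, so this window counts in both classes. Windows of neighbouring H2A and H2B genes on opposite strands can also cover nearly the same bases, as those of HIST1H2AC and HIST1H2BC do. A single octamer, read on either strand, then counts in both the H2A and the H2B class, so these counts are not all separate sites. CCAAT was present in 83.05% of members and 35.7% of all windows, TATAAA in 67.8% and 11.95%. GGTCCG was present in 12 of 13 H4 members and in 15 of the 59 members, against 11.17% of all windows. These matches describe the letters in the window and do not show binding.

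The deposited values are FPKM, fragment counts scaled by gene length and library size, which allows levels of different genes to be compared. Read depth is unknown, and summed FPKM per library ran from 698435 to 869059. The members took 0.0165% to 0.024% of the FPKM total in Jurkat libraries and 0.1286% to 0.2569% in Molt-4 libraries. The 7SL RNA gene took 10.1% of the total in Molt-4 untreated replicate 3 and 2.25% to 5.35% in the other libraries; leaving that library out is among the alternatives. Of the 65 members, 51 reached 1 FPKM in at least 3 of the 12 libraries and were tested, 8 did not, and 6 were listed at 0 in all libraries (HIST1H2AA, HIST1H2BA, HIST1H2BB, HIST1H3C, HIST1H4F and HIST1H4G). The 8 below the filter (HIST1H2AL, HIST1H2BI, HIST1H2BM, HIST1H3A, HIST1H3E, HIST1H3G, HIST1H4K and HIST3H3) stayed at or below 2.14 FPKM apart from HIST1H4K, which had 10.36 FPKM in Jurkat chidamide replicate 3 and 1.64 FPKM in Jurkat untreated replicate 3. Members that pass only through a group in which they are high count among the 51.

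Low values of genes with short transcripts rest on very few reads. For 5 H3 genes with an annotated transcript of 411 bases (HIST1H3A, HIST1H3B, HIST1H3F, HIST1H3I and HIST1H3J), all 41 values above 0 and up to 3 FPKM lay within 0.1 of a whole multiple of a step fitted in each library to those same values. The steps were 0.318 to 0.486 FPKM, so that 1 FPKM of such a gene stands for 2.06 to 3.14 reads. These genes were picked after their values were seen, and in the Molt-4 chidamide libraries the step rests on 1 or 2 values each, so that it is unchecked there. Of the other H3 genes of that annotated length, HIST2H3D, which took no part in fitting the steps, had all 6 values up to 5 FPKM, each in a Jurkat library, within 0.1 of a multiple, HIST1H3D, which overlaps HIST1H2AD, had 0 of 7, and HIST1H3C was at 0. Most Jurkat values below are of this size, but at the same FPKM a gene with a longer transcript has more reads. HIST1H2BG, with an annotated transcript of 1534 bases, had 0.04 FPKM in Jurkat untreated replicate 1, below any of these steps.

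**Figure D1:**
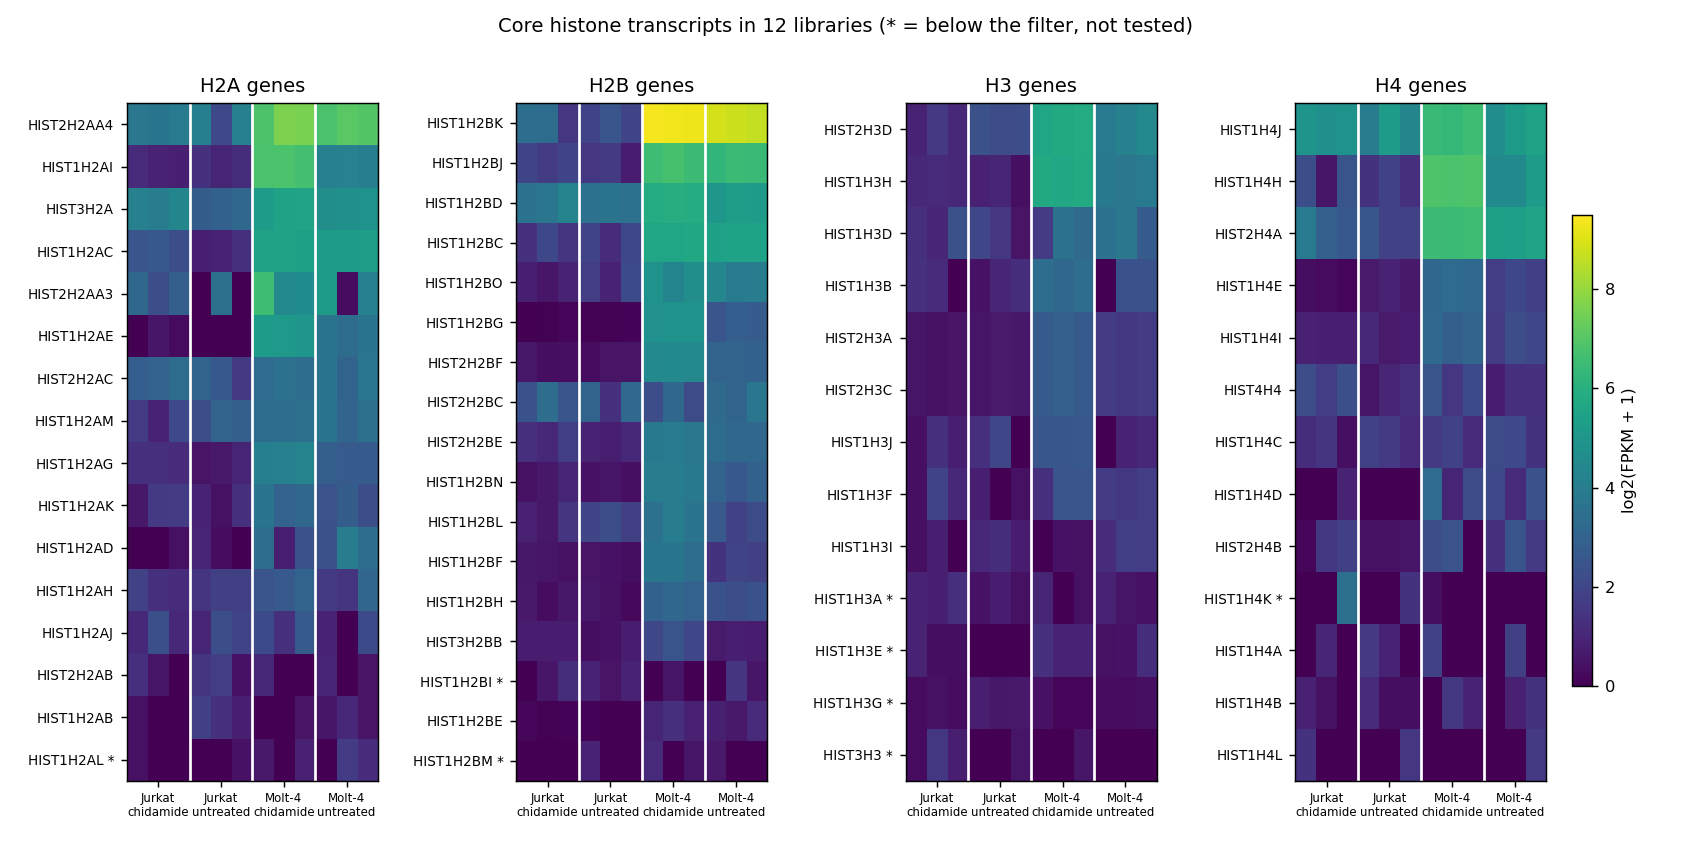
Level of each core histone gene above 0 (rows, ordered by mean level within the H2A, H2B, H3 and H4 panels) in the 12 libraries (columns, 3 per group), as colour on a log2(FPKM + 1) scale. HIST1H2BK stands out with 392.44 to 656.86 FPKM in the Molt-4 libraries, against 1.82 to 9.79 FPKM in the Jurkat libraries, and most rows are darker in Jurkat.

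Among transcripts that passed the poly(A) selection, untreated Molt-4 libraries held far more core histone transcript than untreated Jurkat libraries. Summed over the 65 members, the level was 1119.553 ± 1.936 FPKM in untreated Molt-4 and 128.197 ± 8.702 FPKM in untreated Jurkat (SD, n = 3 each), a ratio of 8.733. HIST1H2BK alone gave 437 ± 42.5 FPKM of the Molt-4 sum and 3.5 ± 1.06 FPKM of the Jurkat sum, and without it the sums were 682.403 ± 40.604 FPKM in Molt-4 and 124.697 ± 7.669 FPKM in Jurkat, a ratio of 5.473. By class the ratio was 19.775 for H2B, 6.151 for H2A, 4.347 for H3 and 3.301 for H4. As these are bulk, poly(A)-selected libraries, fewer cells making a transcript, less transcript per cell and a smaller polyadenylated share cannot be told apart.

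Gene by gene, 33 of 51 tested members (64.7%) were higher in untreated Molt-4 and 1 was lower, where 27.9% of all 13840 genes tested were called higher and 37.5% lower, 65.3% in all (limma on log2(FPKM + 1), Benjamini-Hochberg adjusted p under 0.05). The median log2 difference was 1.33 over the tested members and -0.07 over all genes tested. The higher calls were 12 of 15 H2B, 10 of 15 H2A, 6 of 9 H3 and 5 of 12 H4 genes. Of the 33, 30 were called under every alternative in which they were tested, and the exceptions were HIST1H2AM, HIST2H2AC and HIST1H3F. HIST1H2AD, HIST1H2AE, HIST1H2BE, HIST1H2BF, HIST1H2BG, HIST1H2BH, HIST1H2BN, HIST1H4D, HIST1H4E, HIST2H2BF, HIST2H3A and HIST2H3C, all among the 33, were below 1 FPKM in every Jurkat library. HIST1H2BO, HIST1H3F and HIST1H4I reached 1 FPKM in too few Jurkat libraries to pass the filter without Molt-4. The direction of all these calls was thus largely set by the filter.

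HIST1H2BK, which encodes an H2B protein and has a known polyadenylated form, had 477.11, 441.9 and 392.44 FPKM in untreated Molt-4 libraries and 2.77, 4.72 and 3.01 FPKM in untreated Jurkat libraries. Its log2 difference was 6.63 ± 0.39 (SE, limma adjusted p = 1.81e-08), the largest among the tested members. HIST1H2BJ, another H2B gene with a polyadenylated form, had 75.47, 86.86 and 84.65 FPKM in untreated Molt-4 and 1.82, 2.07 and 0.7 FPKM in untreated Jurkat, a log2 difference of 5.08 ± 0.18 (limma adjusted p = 1.87e-10). Both genes differed without overlap between the lines.

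The neighbours HIST1H2AC and HIST1H2BC followed. HIST1H2AC, an H2A gene, had 37.32, 37.57 and 37.64 FPKM in untreated Molt-4 and 0.79, 0.91 and 1.51 FPKM in untreated Jurkat, a log2 difference of 4.23 ± 0.12 (limma adjusted p = 1.73e-11). HIST1H2BC, an H2B gene, had 42.15, 44.68 and 44.69 FPKM in untreated Molt-4 and 2.85, 1.29 and 3.21 FPKM in untreated Jurkat, a log2 difference of 3.75 ± 0.21 (limma adjusted p = 1.33e-08). Again no Molt-4 library came near a Jurkat library.

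The other tested members did not show this order: 17 were not called and 1 was called lower. Among those not called, HIST1H2AJ, HIST1H3J, HIST1H4A and HIST2H2AB had log2 differences below 0. HIST1H4J, an H4 gene and among the 4 members of highest mean level, had 24.39, 35.07 and 43.5 FPKM in untreated Molt-4 and 15.28, 37.11 and 19.39 FPKM in untreated Jurkat, ranges that overlap (log2 difference 0.56 ± 0.26, limma adjusted p = 0.0777, and 0.92 with adjusted p = 0.00135 without Jurkat untreated replicate 2 or 0.78 with adjusted p = 0.0262 without Molt-4 untreated replicate 1). HIST1H2AB was the single member called lower in Molt-4, at 0.667 ± 0.351 FPKM against 1.62 ± 0.872 FPKM in Jurkat (SD, n = 3 each), a value of a few reads with overlapping groups whose call was lost without Jurkat untreated replicate 1 or 2 and without Molt-4 untreated replicate 1 or 3 (limma adjusted p up to 0.199 over all alternatives).

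The lines also differed in markers of other cell types. All 5 epithelial markers listed (EPCAM, KRT8, KRT18, KRT19 and CDH1) were higher in untreated Molt-4, with a sum of 108.34 to 114.2 FPKM, against 0.24 to 0.43 FPKM in untreated Jurkat, where EPCAM was listed at 0 in all 3 libraries. The 8 T-cell markers summed to 954.97 to 1030.15 FPKM in untreated Molt-4 and 2228.78 to 2277.79 FPKM in untreated Jurkat, and none of them was at 0 in a whole group. The 5 B-cell markers summed to 3.65 to 5.72 FPKM in untreated Molt-4 and 24.91 to 29.84 FPKM in untreated Jurkat. Of 3 B-cell markers tested, 2 were called higher in Molt-4 and 1 lower. Of 2 myeloid markers tested 1 was called higher, and of 2 fibroblast and endothelial markers 0 were called. Over all genes tested 27.9% were called higher in untreated Molt-4 and 37.5% lower. The part of these differences in the histone result was not tested.

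**Figure D2:**
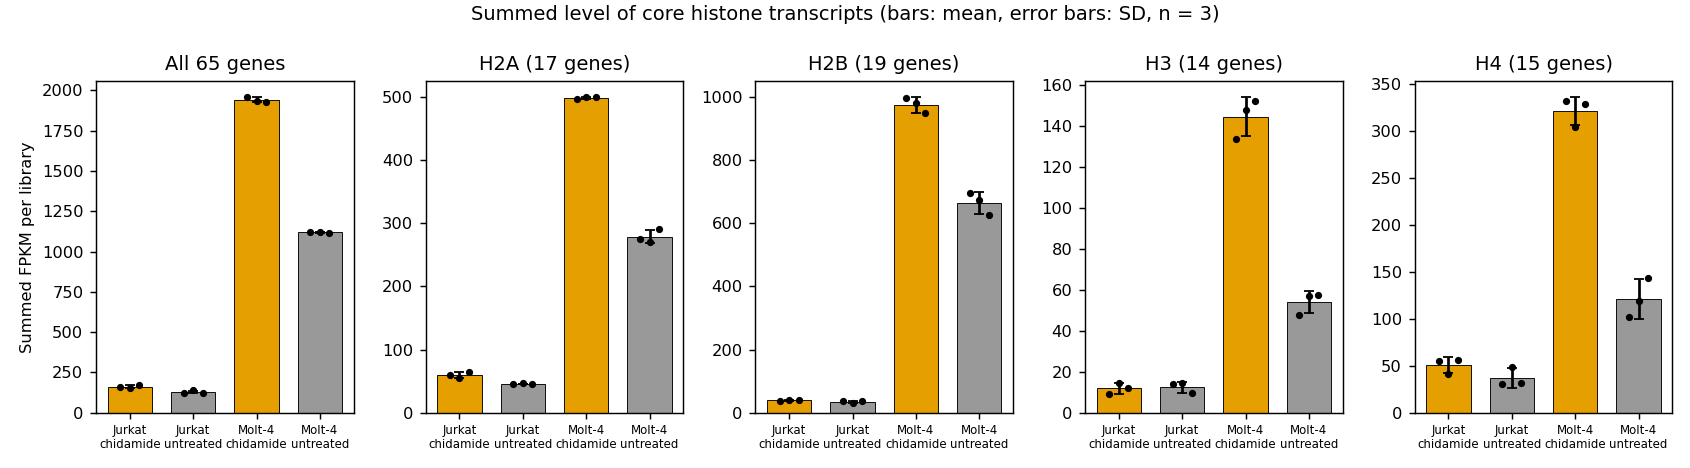
Summed FPKM of the core histone genes per library, for all 65 members and by class, in the 4 groups (bars are means, error bars SD, points the 3 libraries; each panel has its own linear axis from 0). The 3 Molt-4 chidamide libraries sit between 1930.5 and 1960.39 FPKM over all members, above the untreated Molt-4 libraries at 1117.59 to 1121.46 FPKM, while all Jurkat libraries lie between 122.22 and 170.56 FPKM.

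With chidamide, 26 of 51 tested core histone genes rose in Molt-4 and 1 fell, and the sum over all members, which was not tested, was higher. The sum over all members was 1941.9 ± 16.157 FPKM in chidamide-treated Molt-4 and 1119.553 ± 1.936 FPKM in untreated Molt-4 (SD, n = 3 each), a ratio of 1.735, and 1.921 without HIST1H2BK. H3 and H4 transcripts changed most in sum, with ratios of 2.672 and 2.652, against 1.788 for H2A and 1.469 for H2B. The calls were 51.0% of the tested members on the higher side, where 35.4% of all genes tested were called higher and 24.6% lower, 60.0% in all. Quantile normalization gave 23 members higher and 5 lower.

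The median log2 change was 0.69 over the tested members and 0.08 over all genes tested. Higher calls came from 9 of 15 H2B, 6 of 12 H4, 6 of 9 H3 and 5 of 15 H2A genes. Of the 26, 22 were called under every alternative in which they were tested, and the other 4 were HIST1H2AK, HIST1H2BH, HIST1H3B and HIST4H4. The call on HIST4H4 was lost without Molt-4 replicate 1 of the chidamide group (adjusted p = 0.062) or of the untreated group (adjusted p = 0.0602), and that on HIST1H2AK (log2 change 0.77, limma adjusted p = 0.0417) without replicate 1 or 3 of either Molt-4 group or Jurkat untreated replicate 1. The count of higher members lay between 24 and 27 when any single library was left out.

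HIST1H2AI, an H2A gene, changed most. It had 109.29, 112.33 and 101.49 FPKM in chidamide-treated Molt-4 and 16.38, 17.54 and 15.73 FPKM in untreated Molt-4, a log2 change of 2.63 ± 0.11 (SE, limma adjusted p = 2.13e-09). HIST1H2BG, an H2B gene, had 26.86, 28.59 and 28.48 FPKM with chidamide and 4.72, 6.12 and 5.81 FPKM without (log2 change 2.15 ± 0.10, limma adjusted p = 3.5e-09). In both genes every treated Molt-4 library exceeded every untreated library several times over.

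HIST1H4H, an H4 gene with a known polyadenylated form, had 118.58, 110.55 and 117.46 FPKM in chidamide-treated Molt-4 and 22.21, 22.26 and 35.93 FPKM in untreated Molt-4 (log2 change 2.10 ± 0.39, limma adjusted p = 0.000579). HIST1H3H, an H3 gene, had 53.65, 51.34 and 55.07 FPKM with chidamide and 13.42, 12.6 and 14.17 FPKM without (log2 change 1.92 ± 0.13, limma adjusted p = 1.13e-07). HIST2H3D, an H3 gene of the HIST2 cluster, had 48.06, 53.47 and 56.19 FPKM with chidamide and 14.18, 17.07 and 21.31 FPKM without (log2 change 1.55 ± 0.17, limma adjusted p = 6.6e-06). The treated and untreated Molt-4 libraries did not overlap in any of these 3 genes.

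Lower in level, HIST1H2BF, an H2B gene, had 11.88, 12.03 and 9.55 FPKM in chidamide-treated Molt-4 and 1.64, 2.88 and 2.49 FPKM in untreated Molt-4 (log2 change 1.88 ± 0.14, limma adjusted p = 2.91e-07). HIST1H3J had 4.85, 4.75 and 4.99 FPKM with chidamide and 0, 0.95 and 1.14 FPKM without (log2 change 1.86 ± 0.44, limma adjusted p = 0.00297). HIST1H3B had 9.71, 8.23 and 9.62 FPKM with chidamide and 0, 4.27 and 4.19 FPKM without (log2 change 1.75 ± 0.55, limma adjusted p = 0.0154). The last 2 are H3 genes listed at 0 in untreated Molt-4 replicate 1. Without that library HIST1H3B had a log2 change of 0.96 (adjusted p = 0.0352), and with a pseudocount of 0.1 it had 2.91 and lost its call (adjusted p = 0.0843). HIST1H3J had 3.29 with that pseudocount (adjusted p = 0.0322).

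HIST1H3I, also an H3 gene, was the single member called lower, with 0, 0.37 and 0.36 FPKM in chidamide-treated Molt-4 and 1.33, 2.37 and 2.28 FPKM in untreated Molt-4 (log2 change -1.26 ± 0.22, limma adjusted p = 0.000416).

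The most abundant member did not pass the test. HIST1H2BK had 656.86, 621.37 and 614.09 FPKM in chidamide-treated Molt-4 and 477.11, 441.9 and 392.44 FPKM in untreated Molt-4, without overlap (log2 change 0.53 ± 0.39, limma adjusted p = 0.262). The fit shares its spread with Jurkat, where replicate 3 with chidamide had 1.82 FPKM and the other treated replicates 9.79 and 9.34 FPKM, and without that library the Molt-4 change of 0.53 had an adjusted p of 0.00528. HIST1H2BJ, with 93.17, 104.38 and 90.51 FPKM with chidamide and 75.47, 86.86 and 84.65 FPKM without in Molt-4, did not pass either (log2 change 0.22 ± 0.18, limma adjusted p = 0.325, and 0.0361 with only the Molt-4 groups fitted).

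Among the other abundant members in Molt-4, HIST2H2AA4, an H2A gene with a near-identical copy, had 114.97, 195.28 and 192.48 FPKM with chidamide and 107.55, 134.09 and 124.53 FPKM without, which overlap (limma adjusted p = 0.421). HIST1H4J had 83.29, 78.35 and 93.05 FPKM with chidamide and 24.39, 35.07 and 43.5 FPKM without, all treated libraries being higher (log2 change 1.32 ± 0.26, limma adjusted p = 0.000952).

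In Jurkat 8 members rose and 7 fell. The sum over all members was 160.51 ± 9.459 FPKM in chidamide-treated Jurkat and 128.197 ± 8.702 FPKM in untreated Jurkat (SD, n = 3 each), a ratio of 1.252 whose direction turned under quantile normalization (150.22 with chidamide and 153.52 without). Of the 51 tested members 8 (15.7%) were called higher and 7 (13.7%) lower, where 30.9% of all genes tested were called higher and 25.4% lower, 56.3% in all. By class the higher and lower calls were 3 and 2 of 15 H2A, 2 and 2 of 15 H2B, 1 and 2 of 9 H3 and 2 and 1 of 12 H4 genes. Quantile normalization gave 3 members higher and 14 lower. The median log2 change was 0.09 over the tested members and 0.04 over all genes tested.

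HIST1H2AC, the H2A gene shown above, had 4.61, 5.07 and 3.91 FPKM in chidamide-treated Jurkat and 0.79, 0.91 and 1.51 FPKM in untreated Jurkat (log2 change 1.43 ± 0.12, limma adjusted p = 9.12e-07). HIST3H2A, an H2A gene outside the large clusters, had 16.42, 14.84 and 19.67 FPKM with chidamide and 5.96, 6.79 and 8.25 FPKM without (log2 change 1.17 ± 0.13, limma adjusted p = 9.2e-06). The groups did not overlap in either gene, and these 2 of the 8 higher calls held under every alternative in which they were tested; under quantile normalization HIST1H2AC had 0.90.

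Both of the next are H4 genes. HIST4H4 had 3.74, 2.27 and 4.02 FPKM in chidamide-treated Jurkat and 0.44, 1.05 and 1.44 FPKM in untreated Jurkat (log2 change 1.14 ± 0.28, limma adjusted p = 0.00375, and 0.0759 under quantile normalization). HIST2H4A had 13.61, 6.47 and 5.17 FPKM with chidamide and 4.83, 2.61 and 2.6 FPKM without (log2 change 1.05 ± 0.26, limma adjusted p = 0.00481, and 0.0637 with only the Jurkat groups fitted), and a log2 change of 0.68 without chidamide replicate 1 (adjusted p = 0.00874). Every treated library was above every untreated library in both, by a small margin in HIST2H4A.

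The other members called higher in Jurkat were HIST1H2AG, HIST1H2BJ, HIST2H2BE and HIST1H3H, with log2 changes of 0.57, 0.59, 0.41 and 0.34, all at or below 2.71 FPKM on average in each Jurkat group. The change of HIST1H3H turned to -0.13 under quantile normalization and was 0.17 without Jurkat untreated replicate 3, and its call was lost without any single chidamide library of either line and without Jurkat untreated replicate 3 or Molt-4 untreated replicate 1 (adjusted p 0.0509 to 0.108). HIST1H2BJ had 0.33 without Jurkat untreated replicate 3 (adjusted p = 0.0264) and lost its call without Jurkat chidamide replicate 1 (adjusted p = 0.0535) or 3 (adjusted p = 0.0543), and HIST2H2BE lost it without replicate 1 or 3 of the treated or replicate 1 or 2 of the untreated Jurkat libraries.

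On the lower side, HIST2H3D had 0.95, 1.99 and 1.1 FPKM in chidamide-treated Jurkat and 4.07, 3.45 and 3.8 FPKM in untreated Jurkat (log2 change -1.05 ± 0.17, limma adjusted p = 0.000185). HIST1H2AM, an H2A gene, had 2.16, 0.9 and 3.32 FPKM with chidamide and 3.78, 7.42 and 6.26 FPKM without (log2 change -1.16 ± 0.28, limma adjusted p = 0.00322). HIST1H2BL, an H2B gene, had 0.85, 0.53 and 1.71 FPKM with chidamide and 2.94, 3.88 and 2.51 FPKM without (log2 change -1.05 ± 0.24, limma adjusted p = 0.00293). No treated Jurkat library reached an untreated library in these 3 genes.

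HIST1H2BO, the H2B gene beside HIST1H2AM, had 0.79, 0.49 and 0.91 FPKM in chidamide-treated Jurkat and 2.3, 0.86 and 3.44 FPKM in untreated Jurkat, which overlap (log2 change -0.81 ± 0.27, limma adjusted p = 0.0228). Without Jurkat untreated replicate 3 its adjusted p was 0.0925 at a log2 change of -0.53, without untreated replicate 1 it was 0.0679 and without chidamide replicate 2 it was 0.0779. The remaining lower calls were HIST1H2AB, HIST1H4E and HIST1H3I, with log2 changes of -1.19, -0.51 and -0.61, all below 2 FPKM on average in both groups; that on HIST1H3I was lost without chidamide replicate 1 or 3 and without untreated replicate 1 or 2.

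With a pseudocount of 0.1 several of these Jurkat log2 changes were over 1.5 times as large and still called, at 1.76 for HIST4H4, 0.90 for HIST1H2BJ, 0.72 for HIST1H3H, -1.62 for HIST1H2BL and -1.31 for HIST1H2BO.

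Several members not called in Jurkat passed when a single library was left out. HIST1H2BK, at 9.79, 9.34 and 1.82 FPKM with chidamide and 2.77, 4.72 and 3.01 FPKM without, had a log2 change of 0.62 ± 0.39 (limma adjusted p = 0.199) and of 1.26 without chidamide replicate 3 (adjusted p = 4.37e-05). HIST1H4H, at 3.84, 0.49 and 4.52 FPKM with chidamide and 1.62, 2.66 and 1.5 FPKM without, had 0.24 ± 0.39 (limma adjusted p = 0.63) and 0.84 without chidamide replicate 2 (adjusted p = 0.00576). HIST1H4J, at 28.9, 26.21 and 27.68 FPKM with chidamide and 15.28, 37.11 and 19.39 FPKM without, had 0.29 ± 0.26 (limma adjusted p = 0.366) and 0.65 without untreated replicate 2 (adjusted p = 0.0135). In each of these 3 genes the groups overlap through the library named. HIST1H3F, HIST1H2BD, HIST1H2AK, HIST1H2AE and HIST2H2AC likewise passed on the higher side without 1 library, and HIST1H2AI, described below, on the lower side.

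Whether the lines responded differently was tested as the response of Molt-4 minus that of Jurkat. Of the 51 tested members 20 (39.2%) had a higher response in Molt-4 and 2 a lower one, where 19.8% of all genes tested were called higher and 12.1% lower, 31.9% in all. HIST1H2AE, HIST1H2BF, HIST1H2BG, HIST1H2BH, HIST1H2BN, HIST1H4E, HIST2H2BF, HIST2H3A, HIST2H3C and HIST3H2BB, all among the 20, were below 1 FPKM in every Jurkat library. They thus passed the filter only through Molt-4. On the log2(FPKM + 1) scale their Jurkat changes are held small, so their differences rest mostly on the Molt-4 change. HIST1H2BO and HIST1H4I, also among the 20, reached 1 FPKM in too few Jurkat libraries to pass the filter without Molt-4. The median difference of responses was 0.52 over the tested members and 0.04 over all genes tested. Of the 20, 13 were called under every alternative in which they were tested. With a pseudocount of 0.1 in place of 1, which gives more weight to ratios of low values, the calls on HIST1H2AE, HIST1H2AG, HIST1H2BN, HIST1H2BH, HIST1H3J and HIST1H4H were lost. That on HIST1H4H was also lost without Jurkat untreated replicate 2 or Molt-4 untreated replicate 1 or 2 (limma adjusted p 0.0527 to 0.0534). That on HIST1H3J was lost without Jurkat chidamide replicate 1 (limma adjusted p = 0.0535) or Molt-4 untreated replicate 1 (limma adjusted p = 0.0522). The call on HIST1H2AM was lost when any of 9 single libraries was left out (limma adjusted p 0.0519 to 0.0848).

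The largest differences were those of HIST1H2AI at 2.85 ± 0.16 (limma adjusted p = 1.35e-07), HIST2H3D at 2.60 ± 0.23 (limma adjusted p = 6.56e-06) and HIST1H2BL at 2.56 ± 0.34 (limma adjusted p = 0.000153), all on the log2 scale. HIST1H2AI had 1.22, 0.89 and 0.79 FPKM in chidamide-treated Jurkat and 1.55, 0.97 and 1.36 FPKM in untreated Jurkat, where it did not pass the test (limma log2 change -0.22, adjusted p = 0.115). Its Jurkat change was called lower without untreated replicate 2 (-0.33, adjusted p = 0.0245), without chidamide replicate 1 (-0.31, adjusted p = 0.0414) and under quantile normalization (-0.68, adjusted p = 0.000144). HIST2H3D and HIST1H2BL rose in Molt-4 and fell in Jurkat. HIST1H2BL had 10.59, 15.05 and 11.66 FPKM in chidamide-treated Molt-4 and 5.37, 2.53 and 3.48 FPKM in untreated Molt-4 (log2 change 1.52 ± 0.24, limma adjusted p = 0.000187). HIST1H4E, an H4 gene, was the third member that rose in Molt-4 and fell in Jurkat, with log2 changes of 1.41 and -0.51.

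At the other end, HIST1H2AC had a difference of -1.25 ± 0.17 (limma adjusted p = 0.000148), and of -0.70 under quantile normalization. In Molt-4 it had 42.91, 42.89 and 41.71 FPKM with chidamide and 37.32, 37.57 and 37.64 FPKM without, which do not overlap. The log2 change was 0.18 ± 0.12 (limma adjusted p = 0.222, and 0.00729 with only the Molt-4 groups fitted). HIST3H2A rose in both lines, with 36.11, 43.34 and 46.3 FPKM in chidamide-treated Molt-4 and 25.17, 26.24 and 28.55 FPKM in untreated Molt-4, a log2 change of 0.63 ± 0.13. Its difference of -0.54 ± 0.18 (limma adjusted p = 0.0392) was lost when any of 9 single libraries was left out (adjusted p 0.0501 to 0.0942), and without Jurkat untreated replicate 3, Jurkat chidamide replicate 2 or Molt-4 chidamide replicate 3 it remained. HIST1H2BH, an H2B gene, had 6.7, 8.26 and 7.02 FPKM in chidamide-treated Molt-4 and 4.28, 3.81 and 4.29 FPKM in untreated Molt-4. In Jurkat it had 0.58, 0.24 and 0.53 FPKM with chidamide and 0.53, 0.35 and 0.14 FPKM without. This difference was the smallest called on the higher side, at 0.58 ± 0.19 (limma adjusted p = 0.0338), and was lost when any of 7 single libraries was left out (adjusted p 0.0501 to 0.0801).

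**Figure D3:**
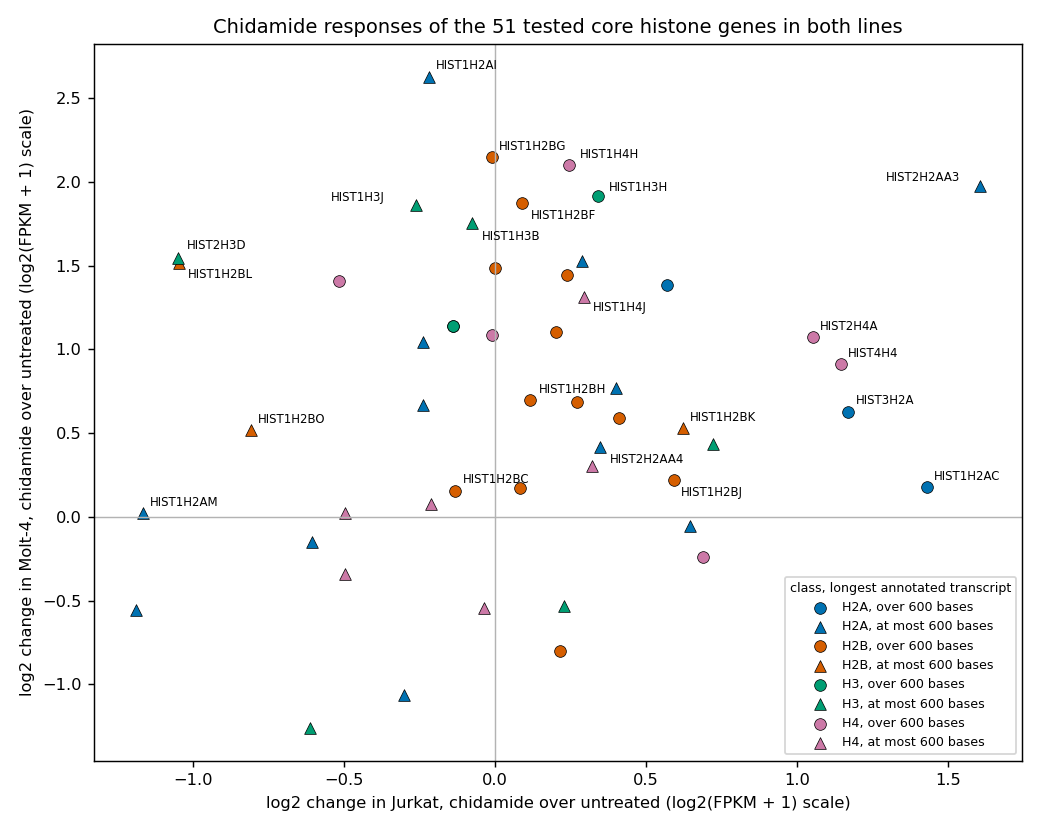
Log2 change with chidamide in Jurkat (x axis) and Molt-4 (y axis) of the 51 tested core histone genes, coloured by class; circles are genes whose longest annotated transcript exceeds 600 bases and triangles the others. Most points lie above 0 on the Molt-4 axis while they spread to both sides of 0 on the Jurkat axis; HIST2H3D and HIST1H2BL lie at about -1.05 in Jurkat and above 1.5 in Molt-4.

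Several members are near-identical copies, for which the split of reads between copies is uncertain. HIST2H2AA3 and HIST2H2AA4 share nearly all of their 50-base stretches, and the first took from 0% to 76.02% of their sum, so the sum is the safer value. It was 207.61, 216.2 and 216.12 FPKM in chidamide-treated Molt-4 and 142.55, 134.35 and 141.81 FPKM in untreated Molt-4, and thus did not overlap although neither gene passed the test by itself. In Jurkat the sum was 18.887 ± 2.605 FPKM with chidamide and 15.417 ± 1.699 FPKM without (SD, n = 3 each), with overlapping libraries.

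HIST2H4A and HIST2H4B together gave 94.38, 93.05 and 92.98 FPKM in chidamide-treated Molt-4 and 43.15, 45.04 and 47.6 FPKM in untreated Molt-4. In Jurkat they gave 13.71, 8.37 and 7.68 FPKM with chidamide and 5.19, 2.95 and 3.07 FPKM without. HIST2H3A and HIST2H3C had the same value in all 12 libraries and count as 2 of the 26 members higher in Molt-4, although they hold a single measurement. HIST1H2AI and HIST1H2AJ share over 50% of their 50-base stretches, and their sum was 112.7, 113.85 and 106.92 FPKM in chidamide-treated Molt-4 and 17.24, 17.54 and 19.13 FPKM in untreated Molt-4, so the treated libraries were higher for both copies together as well. HIST1H4K shares all of its 50-base stretches with HIST1H4J, which took 72.77% to 100% of their sum, so the values of HIST1H4J alone are uncertain too. Their sum was 83.58, 78.35 and 93.05 FPKM in chidamide-treated Molt-4 and 24.39, 35.07 and 43.5 FPKM in untreated Molt-4, without overlap, and in Jurkat 28.9, 26.21 and 38.04 FPKM with chidamide and 15.28, 37.11 and 21.03 FPKM without, with overlap. Sharing also occurs across classes: HIST1H2AM shares 86.34% of its 50-base stretches with HIST1H3J, and HIST1H3J shares 40.91% with HIST1H2AM. The assignment of reads between these genes is uncertain as well. This also holds for HIST1H2AD and HIST1H3D, which overlap. Without the 11 members that share over 50% of their 50-base stretches with another member, 21 of 41 tested were higher and 1 lower in Molt-4. Without the 12 members that overlap another RefSeq gene, among them HIST1H2BK and HIST1H4I, 22 of 41 were higher and 1 lower. Over all genes tested 35.4% were called higher with chidamide in Molt-4 and 24.6% lower.

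Many H2A and H2B genes lie side by side and are read in opposite directions from a common upstream region. GENCODE v29 holds 13 such pairs with starts 124 to 579 bases apart, of which 12 diverge, and both genes were tested in 11. With chidamide in Molt-4 both genes were called higher in 4 pairs, a single gene in 3 and neither in 4. In untreated Molt-4 against untreated Jurkat both were called higher in 7 of the 11. With chidamide in Molt-4, 35.4% of all genes tested and 51.0% of tested members were called higher. Between the untreated lines these shares were 27.9% and 64.7%. Whether the genes of a pair were called together more often than such shares give was not tested.

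Neighbours could differ widely. HIST1H2AE and HIST1H2BG, 283 bases apart, both rose in Molt-4, with log2 changes of 1.53 and 2.15. HIST1H2AG rose with a log2 change of 1.38 (16.97 ± 1.13 FPKM with chidamide and 5.88 ± 0.339 FPKM without, SD, n = 3 each), beside HIST1H2BJ at 0.22, which did not pass. HIST1H2BF rose with a log2 change of 1.88 beside HIST1H2AD at -1.06 (limma adjusted p = 0.125), which had 9.78, 0.73 and 4.19 FPKM with chidamide and 4.11, 15.01 and 9.76 FPKM without. That change of HIST1H2AD lay between -1.68 and -0.36 over the alternatives, and it was called lower without Molt-4 untreated replicate 1 or Molt-4 chidamide replicate 1. HIST1H2AD overlaps HIST1H3D, which had 2.19, 10.94 and 8.74 FPKM with chidamide and 10.91, 12.77 and 5.85 FPKM without in Molt-4. The assignment of reads between them is uncertain, so the value of HIST1H2AD alone is uncertain too. In Jurkat HIST1H2AC rose with a log2 change of 1.43 while HIST1H2BC had -0.13, with 1.53, 3.12 and 1.71 FPKM with chidamide and 2.85, 1.29 and 3.21 FPKM without (limma adjusted p = 0.636). In Molt-4 HIST1H2BC had 48.38, 48.21 and 50.36 FPKM with chidamide and 42.15, 44.68 and 44.69 FPKM without, which do not overlap (limma adjusted p = 0.551, and 0.0196 with only the Molt-4 groups fitted). HIST1H2AM and HIST1H2BO both fell in Jurkat.

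**Figure D4:**
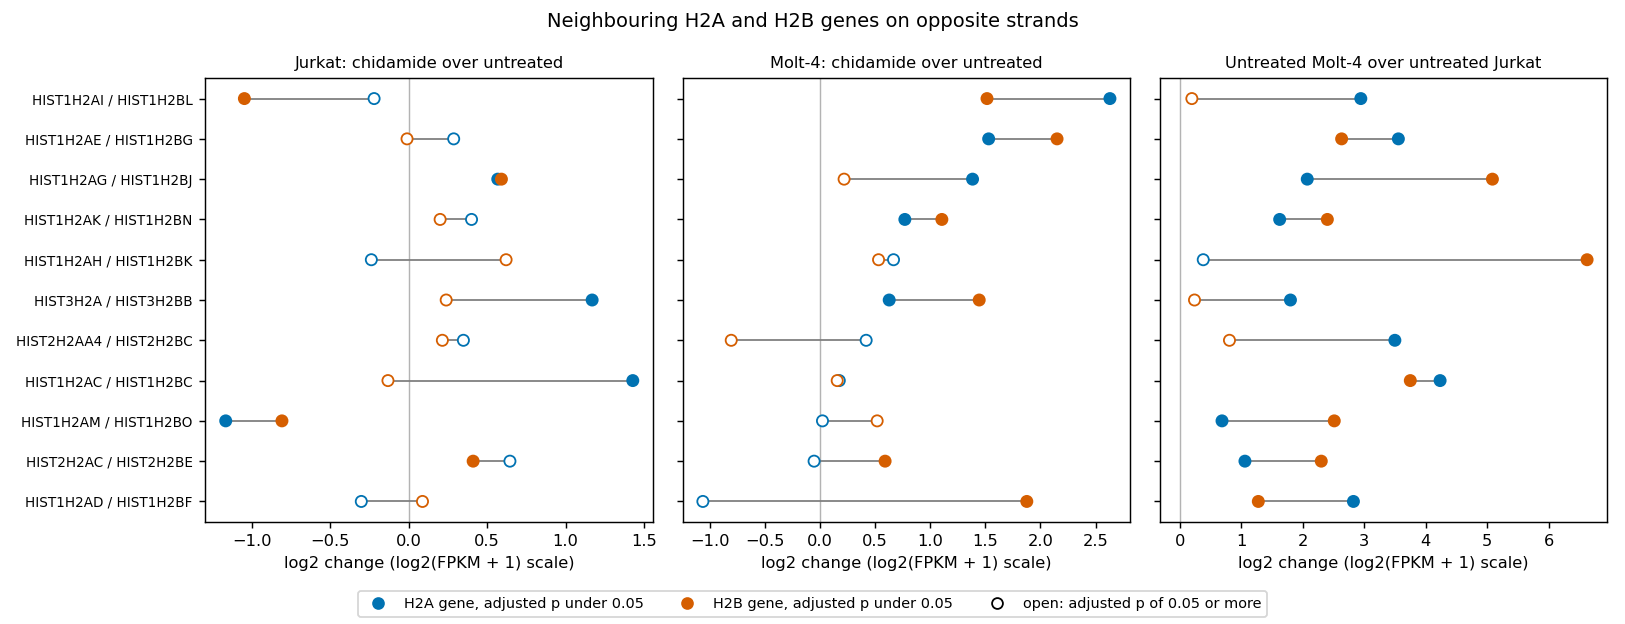
Log2 changes of 11 neighbouring H2A and H2B pairs on opposite strands (rows), with the H2A gene in blue and the H2B gene in orange joined by a line, for chidamide in Jurkat, chidamide in Molt-4 and the untreated lines; filled points have an adjusted p under 0.05. HIST1H2AD and HIST1H2BF are farthest apart in Molt-4, at -1.06 (not called, and between -1.68 and -0.36 over the alternatives) and 1.88, and HIST1H2AH and HIST1H2BK between the untreated lines, at 0.38 and 6.63. HIST1H2AD overlaps HIST1H3D, so its own value is uncertain.

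The longest transcript that GENCODE v29 annotates for each gene was set beside the changes, a split chosen after the values were seen and given without a test. A long transcript reaches beyond the stem-loop end that the short histone messenger RNA has. Of 24 tested members with a transcript over 600 bases, 18 were higher and 0 lower with chidamide in Molt-4, and 8 were higher and 1 lower in Jurkat. Of 27 tested members with none over 600 bases, 8 were higher and 1 lower in Molt-4, and 0 were higher and 6 lower in Jurkat. Over all genes tested 35.4% were higher and 24.6% lower in Molt-4, and 30.9% were higher and 25.4% lower in Jurkat, so that the Jurkat counts of higher calls in the longer set and of lower calls in the shorter set are near the share over all genes. The median log2 change was 1.08 for the longer and 0.44 for the shorter set in Molt-4, and 0.23 for the longer and -0.22 for the shorter set in Jurkat.

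With a limit of 1000 bases 6 of the 8 Jurkat increases lay in the longer set, and with 500 bases all 8. In Molt-4 the sets also differed in level: the median over the longer set was 12.257 FPKM in chidamide-treated Molt-4 and 5.715 FPKM in untreated Molt-4, and over the shorter set 3.453 FPKM in chidamide-treated Molt-4 and 1.993 FPKM in untreated Molt-4. In Jurkat the medians were 0.96 FPKM for the longer and 0.88 FPKM for the shorter set with chidamide, and 0.678 FPKM for the longer and 0.927 FPKM for the shorter set without. The part of level in the split was not tested. HIST1H2BK counts as short in this annotation, at 381 bases, and HIST1H2AI at 503 bases. Of 7 members known to give polyadenylated transcripts (HIST1H2AC, HIST1H2BC, HIST1H2BD, HIST1H2BJ, HIST1H2BK, HIST2H2BE and HIST1H4H), 3 were higher and 0 lower with chidamide in each line, near the 30.9% of all genes tested that were higher in Jurkat and the 35.4% in Molt-4, and all 7 were higher in untreated Molt-4 than in untreated Jurkat, with a median log2 difference of 3.75.

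The promoter letters and the Molt-4 calls were likewise set side by side without a test. The octamer was present in 7 of 25 members called higher in Molt-4 that had a window (28.0%) and in 13 of 20 tested members not called higher (65.0%). Within the H2A and H2B genes, which hold nearly all octamers, it was present in 7 of 14 called higher and 12 of 14 others, and TATAAA in 7 of 14 and 13 of 14. Neighbours whose windows overlap can share a site here, so these genes are not independent.

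Genes that serve the histone supply were mostly lower or not called with chidamide, where 25.4% of all genes tested were lower in Jurkat and 24.6% in Molt-4. Of 24 genes of histone transcription and 3′ end processing, chidamide-treated Jurkat had 2 called higher and 10 called lower, and chidamide-treated Molt-4 had 2 and 13. SLBP, which binds the stem-loop, fell to 68.0 ± 2.02 FPKM in chidamide-treated Jurkat, against 88.2 ± 8.39 FPKM in untreated Jurkat (log2 change -0.37, limma adjusted p = 0.000493), and to 73.0 ± 1.44 FPKM in chidamide-treated Molt-4, against 87.0 ± 3.69 FPKM in untreated Molt-4 (log2 change -0.25, limma adjusted p = 0.00631; SD, n = 3 each). NPAT, the coactivator of histone transcription, did not pass in either line, at log2 changes of 0.08 in Jurkat and -0.02 in Molt-4. LSM10, a subunit of the particle that processes histone 3′ ends, fell with log2 changes of -0.70 in Jurkat and -0.71 in Molt-4, and POU2F1, which encodes OCT1, rose with 0.72 and 0.29.

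Of 21 histone chaperone and assembly genes 1 was higher and 15 lower in each line. IPO4, which imports histones into the nucleus, fell with log2 changes of -1.55 in Jurkat and -1.39 in Molt-4. Of 33 DNA replication genes 1 was higher and 26 lower in Jurkat, and 2 were higher and 23 lower in Molt-4; POLE, the catalytic subunit of a replicative polymerase, had 61.2 ± 4.77 FPKM in chidamide-treated Jurkat and 110.0 ± 9.29 FPKM in untreated Jurkat, and 81.5 ± 4.13 FPKM in chidamide-treated Molt-4 and 123.6 ± 7.7 FPKM in untreated Molt-4 (SD, n = 3 each).

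Histone genes outside the rule were set beside the members, where over all genes tested 30.9% were higher and 25.4% lower in Jurkat, and 35.4% were higher and 24.6% lower in Molt-4. Of 6 tested genes listed here as replication-independent histones, 3 were higher and 1 lower in each line. H2AFX, which encodes H2A.X, rose with log2 changes of 1.36 in Jurkat and 0.47 in Molt-4, and H3F3A, which encodes H3.3, with 0.61 and 0.44. Of 5 tested linker histone genes 3 were higher in Jurkat, 4 were higher in Molt-4 and 0 were lower in either. HIST1H1C, a linker histone of the HIST1 cluster, had 14.6 ± 2.08 FPKM in chidamide-treated Jurkat and 2.88 ± 0.116 FPKM in untreated Jurkat, and 654 ± 22.9 FPKM in chidamide-treated Molt-4 and 254 ± 6.74 FPKM in untreated Molt-4 (SD, n = 3 each).

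Markers of other cell types moved with chidamide as well. Over all genes tested 35.4% were called higher and 24.6% lower in Molt-4. In Molt-4 the 5 myeloid markers summed to 68.4 to 68.92 FPKM with chidamide and 0.75 to 1.89 FPKM without, where MPO was at 0, with 2 of 2 tested called higher, LYZ and ITGAM. The 5 B-cell markers summed to 18.62 to 23.41 FPKM with chidamide and 3.65 to 5.72 FPKM without, with MS4A1 at 0 in both groups and 3 of 3 tested higher. The 5 fibroblast and endothelial markers summed to 35.01 to 42.02 FPKM with chidamide and 0.26 to 1.25 FPKM without, where COL1A2 and CDH5 were at 0, with 2 of 2 tested higher. The 5 epithelial markers summed to 277.11 to 283.67 FPKM with chidamide and 108.34 to 114.2 FPKM without, with 4 of 5 higher, and the 8 T-cell markers to 721.34 to 748.15 FPKM with chidamide and 954.97 to 1030.15 FPKM without, with 3 higher and 5 lower. The 3 higher calls among the 8 T-cell markers are near the share over all genes.

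In Jurkat the 8 T-cell markers summed to 1287.35 to 1340.51 FPKM with chidamide and 2228.78 to 2277.79 FPKM without, with 1 higher and 7 lower. Over all genes tested 30.9% were called higher and 25.4% lower in Jurkat. The epithelial sum was 0.84 to 1.88 FPKM with chidamide and 0.24 to 0.43 FPKM without, with EPCAM at 0 in both groups and 2 of 5 higher, and the myeloid sum 0.77 to 3.25 FPKM with chidamide and 0.09 to 1.05 FPKM without, with 1 of 2 tested higher. The fibroblast and endothelial sum was 37.01 to 46.91 FPKM with chidamide and 0.52 to 2.0 FPKM without, with CDH5 at 0 in both groups and 2 of 2 tested higher, and the B-cell sum 11.81 to 12.79 FPKM with chidamide and 24.91 to 29.84 FPKM without, with 1 of 3 tested lower. In Jurkat the epithelial calls and the B-cell call are near the shares over all genes. The part of the markers in the histone changes was not tested.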

How the data were processed

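RNA sequencing libraries of Jurkat and Molt-4 cells with and without chidamide were used, 12 in all. The authors deposited FPKM values per gene symbol; per the submitters' processing notes STAR, HTSeq and DESeq2 were used with hg19, and how FPKM was obtained is not given in the sources used here. No counts accompany the FPKM, so depth and counting intervals are unknown. All value columns were used.

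Genes with at least 1 FPKM in at least 3 of 12 libraries (13840) were taken as log2(FPKM + 1), a scale that understates changes of low values. Limma 3.58.1 in R 4.3.3 was run with the 4 group means as coefficients over the 12 libraries (lmFit, eBayes with trend, 8 residual degrees of freedom), with two-sided p-values adjusted by Benjamini-Hochberg over all 13840 genes and called under 0.05. Simulated libraries in which 200 genes had known changes were used to test the fit.

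The members, gene lists and tests were chosen with earlier results of these data known. Named by rule were, per treatment comparison, the 8 called members of largest change with a mean of at least 2 FPKM in the higher group, the 4 members of highest mean level, the 3 highest and 3 lowest called differences of responses, the 4 largest called differences between untreated lines, and up to 3 called genes per list. Other members are named where a count, a neighbouring pair, a shared sequence or a lost call called for it, after their values were seen. NPAT and SLBP were likewise named for their role.

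All 65 members matched RefSeq (GRCh38.p14) through older symbols, and GENCODE v29. Promoter windows are RefSeq's; motif search, 50-base sharing, transcript length and the worth of a read were added after seeing the data. Alternatives were a pseudocount of 0.1, no filter or one of 5 FPKM, median-of-ratios and quantile normalization, equal totals without 7SL RNA, the compared groups alone, a robust fit, a replicate block, leaving out each library, and leaving out copied or overlapping members. No amino acid sequences were used here.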

Additional observations from a re-analysis of the deposited data

Results flagged for a closer look

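For 22 members the response to chidamide differed between the lines in a test of the difference itself (Molt-4 minus Jurkat, limma adjusted p under 0.05, log2 scale), where 31.9% of all genes tested differed in either direction. Among H2A genes the differences were 2.85 for HIST1H2AI, 1.24 for HIST1H2AE, 1.19 for HIST1H2AM, 0.82 for HIST1H2AG, -0.54 for HIST3H2A and -1.25 for HIST1H2AC. Among H2B genes they were 2.56 for HIST1H2BL, 2.16 for HIST1H2BG, 1.79 for HIST1H2BF, 1.49 for HIST2H2BF, 1.33 for HIST1H2BO, 1.21 for HIST3H2BB, 0.91 for HIST1H2BN and 0.58 for HIST1H2BH. Among H3 genes they were 2.60 for HIST2H3D, 2.13 for HIST1H3J, 1.58 for HIST1H3H and 1.28 for each of HIST2H3A and HIST2H3C, which hold a single measurement. Among H4 genes they were 1.92 for HIST1H4E, 1.86 for HIST1H4H and 1.10 for HIST1H4I. Several of these members, named above, were below 1 FPKM in every Jurkat library, so their differences rest mostly on the Molt-4 change. No group has 4 libraries, so single libraries far from the rest of their group were not looked for.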

How the results depend on the processing

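The counts of members called higher in Molt-4 with chidamide, in untreated Molt-4 and in the difference of responses stayed within 1.5 times of the reported count under every alternative run. Members called higher with chidamide in Jurkat (8 as reported) numbered 3 under quantile normalization and 4 with only the compared groups fitted, and lower calls there (7) numbered 14 under quantile normalization. The single lower call in Molt-4 with chidamide became 2 with a pseudocount of 0.1 and with a replicate block, 0 with a filter of 5 FPKM, where HIST1H3I is not tested, 5 under quantile normalization and 3 with only the compared groups. The 2 lower calls of the difference became 1 without a filter and under quantile normalization. The single lower call between untreated lines became 0 with a pseudocount of 0.1, a filter of 5 FPKM, median-of-ratios scaling, only the compared groups and a replicate block. Leaving out single libraries gave 1 to 2 lower calls in Molt-4, 1 to 2 in the difference and 0 to 3 between untreated lines, the 3 without Jurkat untreated replicate 3. For HIST1H3H in Jurkat the change turned to -0.13 under quantile normalization. Summed FPKM was 150.22 under quantile normalization and 236.51 with equal totals in Jurkat with chidamide, 153.52 and 178.65 in untreated Jurkat, 1925.26 and 2590.31 in Molt-4 with chidamide and 1113.55 and 1493.85 in untreated Molt-4; median-of-ratios scaling gave 1976.68 and 1181.52 in the treated and untreated Molt-4 groups. Leaving out single libraries gave sums of 155.49 to 164.88, 123.2 to 131.18, 1932.65 to 1947.6 and 1118.6 to 1120.53 in these 4 groups. Quantile normalization moved the median log2 change of all genes by -0.17 in Molt-4, to a members' median of 0.47, and by -0.10 in the difference, to a members' median of 0.60. Over all genes it gave 3543 higher and 4956 lower in Molt-4, and 2225 higher and 2644 lower in the difference, where 2745 and 1671 were reported; equal totals gave 2327 and 2219. The balance of all genes also turned in Jurkat under quantile normalization (3650 higher and 4054 lower) and between untreated lines under median-of-ratios scaling (4653 and 4336). Samples with the same replicate number did not deviate together (correlations -0.0384 to 0.0408), so the numbers were not taken as pairs; with a replicate block 26 members were higher in Molt-4, 7 higher and 8 lower in Jurkat, 19 higher and 2 lower in the difference and 35 higher between untreated lines. Of 1735 values of 21 named members, 1590 kept direction and side of the threshold, 39 that were called neither as reported nor under the alternative changed sign, 78 lost the threshold, 27 gained it and 1 called value turned. The cause of these shifts was not tested. Depth is unknown, and values below about 1 FPKM of genes with short transcripts rest on a few reads.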
